A study of Mus musculus with 10 samples.

Results

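The cytochrome P450 enzymes of the mouse Cyp3a family, the nuclear receptor gene Nr1i2 and the electron donor gene Por were followed in mouse liver. The set was chosen by name, as 9 listed genes whose symbol was looked up in the deposited expression table. Of these, 8 had a row among the 16874 rows, and Cyp3a16 had none and is not analysed here. The samples were 10 liver RNA libraries, all from male C57BL/6 mice in which Pparg had been knocked out in the liver alone. Pparg encodes PPAR gamma, a nuclear receptor of fat storage, and both groups carried the knockout. For 5 libraries the mice had been given 0.5% CMC by gavage. For the other 5 they had been gavaged with DEHP, a plasticizer of the phthalate class, with a dose of 2500 mg/kg of body weight. The labels list 12 mice of 20 to 30 g in each group and do not tie a library to an animal, so a p-value here reflects spread among libraries, which may be technical. The driver of the knockout, the deleted part of the gene, the age of the mice and the length of treatment are not given in the sources used here. With no library of unaltered Pparg analysed here, nothing below can be assigned to the knockout.

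CYP3A enzymes are haem proteins of the endoplasmic reticulum of hepatocytes that oxidize steroids, bile acids and a wide range of drugs. Nr1i2 encodes the pregnane X receptor (PXR), which is activated by foreign compounds and bile acids, pairs with the retinoid X receptor and switches on Cyp3a genes and genes of conjugation and export. Por encodes the NADPH-dependent reductase that passes electrons to every microsomal P450. In mice Cyp3a11 is the usual marker of PXR activity, Cyp3a13 is also made in the intestine, and Cyp3a41a, Cyp3a44 and Cyp3a16 are known as transcripts of female or young liver. The related receptor CAR (Nr1i3) shares many targets with PXR, with Cyp2b10 as its usual marker.

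Each value is a level in FPKM, the number of fragments per kilobase of transcript relative to the library total, so levels can be set side by side between genes. The step that 1 fragment makes among low values put the depth at an estimated 6920000 to 7300000 fragments per library. The hepatocyte markers were abundant in every library, with a summed level of 71470 to 89660 FPKM in CMC and 53250 to 62080 FPKM in DEHP libraries, and 6 of 10 were lower and 1 higher after DEHP. Of the erythroid markers 1 of 5 tested was lower, with summed levels of 1227 to 2433 and 1061 to 1723 FPKM. For comparison, limma called 9.12% of all tested genes higher and 2.4% lower, and each marker list is short. Markers of Kupffer cells, endothelium, stellate cells, bile duct and lymphocytes had no tested member past the threshold, and their summed levels overlapped between the groups. No marker in the table was at 0 in every library, and the 4 adipocyte markers with a row summed to at most 2.41 FPKM. Pparg itself was higher after DEHP, from 3.94 ± 1.43 to 7.51 ± 1.41 FPKM (SD, n = 5 each, limma adjusted p = 0.0118). Its value covers the whole gene and checks nothing about the deletion. CMC library 2 stood apart from the other 9 on the second principal component. The counts of called genes in each list, the cell type markers aside, are given with and without it. The part of these differences in the results below was not tested.

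After DEHP, Cyp3a13 and Por were higher, by 1.43-fold and 1.64-fold, while the receptor gene Nr1i2 and the main enzyme genes Cyp3a11, Cyp3a25 and Cyp3a59 were not past the threshold. Of the 8 genes with a row, 6 passed the filter on low values and were tested, and 2 of these were higher and 0 lower, as they were without CMC library 2. Among all 11242 genes tested 9.12% were higher and 2.4% lower, by limma at an adjusted p below 0.05, so a count of 2 in 6 rests on very few genes. The median log2 fold change of the 6 was 0.11, beside 0.06 for all tested genes. In bulk liver, fewer hepatocytes and less RNA per hepatocyte cannot be told apart.

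**Figure D1:**
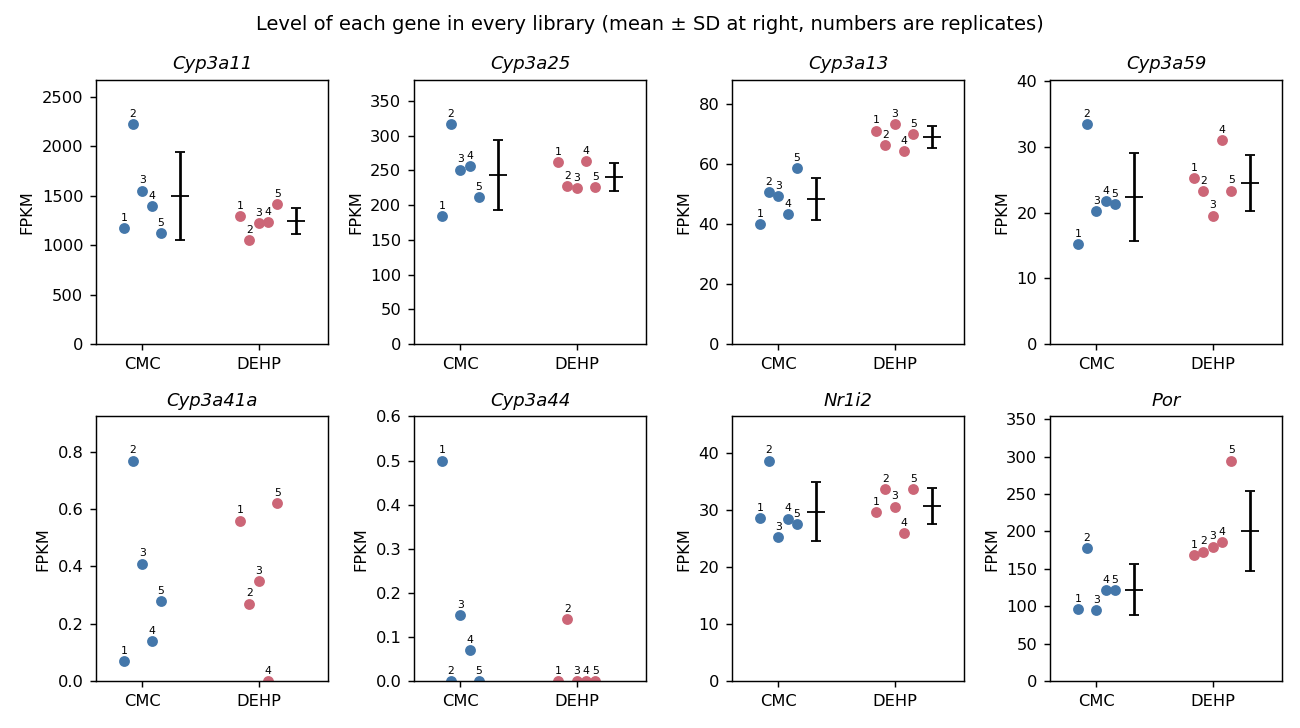
Level in FPKM (vertical axes, from 0) of the 8 genes in each of 5 CMC and 5 DEHP libraries; points are libraries with their replicate number, and bars at the right of a group are mean ± SD (n = 5), left out for Cyp3a41a and Cyp3a44. Cyp3a13 is the gene whose DEHP values, 64.2 to 73.4 FPKM, all lie above the CMC values, 40.1 to 58.5 FPKM.

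Cyp3a11 was the most abundant transcript of the set and was not past the threshold. It was at 1173, 2229, 1553, 1399.96 and 1120.15 FPKM in CMC libraries 1 to 5 and at 1295, 1056, 1222, 1231 and 1418 FPKM in DEHP libraries 1 to 5. All 5 CMC libraries lay above the lowest DEHP library, the groups overlapped, and the highest value was that of CMC library 2. The mean was 1495 ± 446 FPKM in CMC and 1245 ± 131 FPKM in DEHP livers (SD, n = 5 each). The log2 fold change was -0.22 (SE 0.16, 95% interval -0.58 to 0.13, limma adjusted p = 0.429). Without CMC library 2 the log2 fold change was -0.07 (limma adjusted p = 0.751).  At the estimated depth these values stand for 17670 to 36461 fragments, so counting error is small beside the spread between libraries.

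Cyp3a25, another liver Cyp3a enzyme gene, was second, with 184, 317, 251, 256 and 212 FPKM in CMC and 262, 227, 225, 263 and 226 FPKM in DEHP libraries 1 to 5. All DEHP values lay inside the CMC range. Its log2 fold change was 0.0008 (SE 0.12, 95% interval -0.26 to 0.26, limma adjusted p = 0.998), and its sign turned under 3 other scalings. Cyp3a59, a close relative of Cyp3a25, was at 15.2, 33.5, 20.2, 21.7 and 21.2 FPKM in CMC and 25.2, 23.3, 19.5, 31.0 and 23.3 FPKM in DEHP libraries. The groups overlapped here as well, with a log2 fold change of 0.16 (SE 0.18, 95% interval -0.22 to 0.54, limma adjusted p = 0.639). Without CMC library 2 it was 0.31 (limma adjusted p = 0.168).

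Cyp3a13 was the Cyp3a gene that rose. It was at 40.1, 50.6, 49.4, 43.3 and 58.5 FPKM in CMC libraries 1 to 5 and at 71.1, 66.3, 73.4, 64.2 and 69.95 FPKM in DEHP libraries 1 to 5. Every DEHP library lay above every CMC library, a separation seen in that direction in 8.56% of all tested genes and in either direction in 10.7%. The mean went from 48.4 ± 7.12 to 69.0 ± 3.69 FPKM (SD, n = 5 each). The log2 fold change was 0.52 (SE 0.10, 95% interval 0.31 to 0.72, limma adjusted p = 0.00305). The call held under every alternative run with limma, with an adjusted p of 0.00102 to 0.0289. Regrouping its 10 values in every way, an exact permutation test taken two-sided, gave p = 0.00794, the smallest that 5 against 5 libraries allow, and 0.0742 after adjustment over all tested genes, where no gene passed.

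Cyp3a41a and Cyp3a44, the female-type genes of the set, were near the limit of detection in these male livers and were not tested. Cyp3a41a was at 0.07, 0.77, 0.41, 0.14 and 0.28 FPKM in CMC and at 0.56, 0.27, 0.35, 0 and 0.62 FPKM in DEHP libraries 1 to 5. It reached the filter of 0.5 FPKM in 3 of 10 libraries, and the groups overlapped. Cyp3a44 was at 0.5, 0, 0.15, 0.07 and 0 FPKM in CMC libraries and was listed at 0 in 4 DEHP libraries and at 0.14 FPKM in DEHP library 2. At the estimated depth 1 fragment of Cyp3a44 is worth about 0.07 FPKM, so its 10 values stand for 0 to about 7.2 fragments each. Both genes missed the filter, so whether the groups differed in either was not tested.

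In both groups Cyp3a11 stood first in level, with 6.13 times the mean of Cyp3a25 in CMC and 5.17 times in DEHP livers. Below them in CMC livers came Por, Cyp3a13, Nr1i2, Cyp3a59, Cyp3a41a and Cyp3a44. Neighbours in this order whose ranges overlapped were Nr1i2 with Cyp3a59 and Cyp3a41a with Cyp3a44. After DEHP the order was the same, but Cyp3a25 and Por, 1.202 times apart in mean, then overlapped as well. The 6 Cyp3a rows together made 1810 ± 500.1 FPKM in CMC and 1579 ± 137 FPKM in DEHP livers (SD, n = 5 each), and 1605 ± 231 FPKM in the 4 CMC libraries other than library 2. Cyp3a11 made 82.2% ± 2.02 of that sum in CMC and 78.7% ± 1.85 in DEHP livers, and Cyp3a13 2.81% ± 0.819 and 4.39% ± 0.387. The sum leaves out Cyp3a genes with no row, some of which share sequence with these 6, and no test was made on it.

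**Figure D2:**
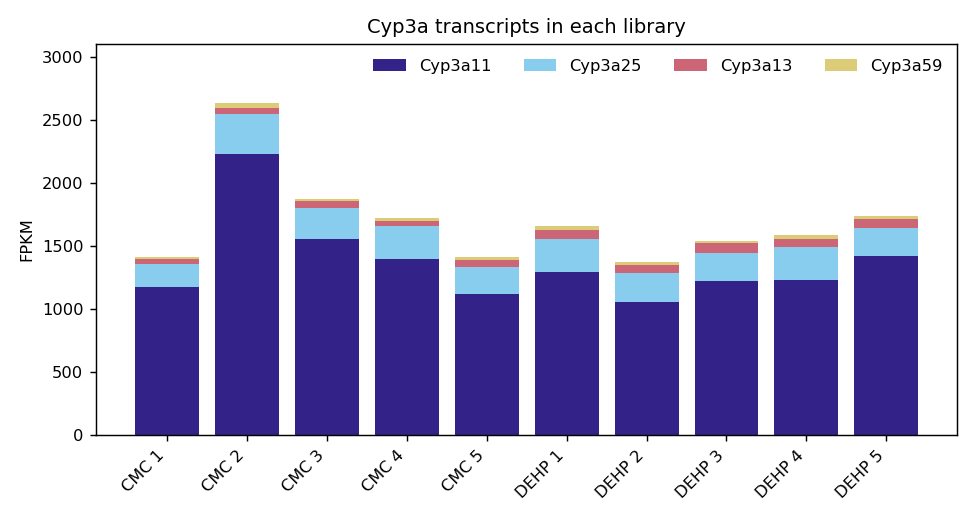
Level in FPKM (vertical axis, from 0) of the 4 abundant Cyp3a transcripts, stacked, in each library. The tallest bar is CMC library 2, whose 6 Cyp3a rows sum to 2630 FPKM, while the 5 DEHP libraries sum to between 1373 and 1738 FPKM.

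Most Cyp3a genes lie in 1 cluster on mouse chromosome 5, and some are so alike in sequence that reads can be shared between them. Cyp3a11 lies at 145854607 to 145879854, Cyp3a25 at 145977192 to 146009644 and Cyp3a59 at 146079208 to 146114978 in GRCm38. Cyp3a41a (145694049 to 145720136) and Cyp3a44 (145773983 to 145805891) lie in the same cluster, while Cyp3a13 (137892933 to 137925610) and Por (135670040 to 135735326) lie apart from it on chromosome 5. Nr1i2 lies on chromosome 16 from 38248349 to 38294849. Of the windows of 50 bases along the Cyp3a41a transcript, 93.7% also occur in Cyp3a41b, which has no row of its own, so the Cyp3a41a value cannot be told apart from a sum of both. The share of windows found in any other Cyp3a gene was 14.8% for Cyp3a11, 26.8% for Cyp3a25, 28.0% for Cyp3a59 and 26.5% for Cyp3a44. For Cyp3a13 it was 0%.

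The promoters of 6 genes are shown because the set holds pairs that are alike in promoter and far apart in level, beside the pair of genes that rose. They are RefSeq sequences of GRCm38.p6, from 250 bases before to 50 after the first listed transcript start, on the strand of the gene. Capitals mark ATATAA, the core of a TATA element, and GGGCGG, known as a GC box. They also mark pairs of the hexamer AGNTCA, the kind of sequence that nuclear receptors recognise, each on either strand.
Cyp3a11 (chr5:145879805-145880104, minus strand): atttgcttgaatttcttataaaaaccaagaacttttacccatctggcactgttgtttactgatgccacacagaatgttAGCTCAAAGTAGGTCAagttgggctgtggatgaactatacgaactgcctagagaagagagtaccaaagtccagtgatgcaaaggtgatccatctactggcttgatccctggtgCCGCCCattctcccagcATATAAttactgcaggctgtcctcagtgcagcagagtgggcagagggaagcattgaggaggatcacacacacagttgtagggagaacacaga
Cyp3a41a (chr5:145720087-145720386, minus strand): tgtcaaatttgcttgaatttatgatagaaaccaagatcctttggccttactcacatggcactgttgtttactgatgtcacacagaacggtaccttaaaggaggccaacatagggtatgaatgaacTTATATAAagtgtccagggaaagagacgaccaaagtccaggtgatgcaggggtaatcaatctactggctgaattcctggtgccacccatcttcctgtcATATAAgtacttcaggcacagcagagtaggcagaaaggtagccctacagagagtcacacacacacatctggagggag
Cyp3a25 (chr5:146009569-146009868, minus strand): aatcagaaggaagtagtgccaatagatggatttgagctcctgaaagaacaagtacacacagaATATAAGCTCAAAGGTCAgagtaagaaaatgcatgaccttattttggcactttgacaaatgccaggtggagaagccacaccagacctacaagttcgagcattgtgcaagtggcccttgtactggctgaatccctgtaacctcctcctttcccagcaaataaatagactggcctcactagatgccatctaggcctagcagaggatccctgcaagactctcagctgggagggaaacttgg
Cyp3a59 (chr5:146079008-146079307, plus strand): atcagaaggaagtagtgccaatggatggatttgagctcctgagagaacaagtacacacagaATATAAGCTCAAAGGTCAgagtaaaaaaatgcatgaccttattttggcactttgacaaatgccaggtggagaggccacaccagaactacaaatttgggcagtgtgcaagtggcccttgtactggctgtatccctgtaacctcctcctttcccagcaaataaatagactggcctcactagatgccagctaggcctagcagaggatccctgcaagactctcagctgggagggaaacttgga
Cyp3a13 (chr5:137921570-137921869, minus strand): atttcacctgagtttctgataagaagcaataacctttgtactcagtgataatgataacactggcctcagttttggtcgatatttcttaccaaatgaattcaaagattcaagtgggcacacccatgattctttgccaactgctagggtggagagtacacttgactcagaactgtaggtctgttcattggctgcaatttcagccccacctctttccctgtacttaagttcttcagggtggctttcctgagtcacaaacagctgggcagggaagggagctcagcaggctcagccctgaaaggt
Por (chr5:135688895-135689194, plus strand): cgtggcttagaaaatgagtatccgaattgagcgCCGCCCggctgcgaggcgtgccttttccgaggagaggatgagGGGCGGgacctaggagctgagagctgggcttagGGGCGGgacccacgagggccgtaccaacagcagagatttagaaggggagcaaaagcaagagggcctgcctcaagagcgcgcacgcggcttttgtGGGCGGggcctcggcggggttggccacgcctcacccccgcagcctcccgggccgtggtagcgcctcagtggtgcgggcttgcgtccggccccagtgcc

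The promoters of Cyp3a25 and Cyp3a59 were 95.7% identical, yet the mean level of Cyp3a25 was 244 FPKM and that of Cyp3a59 22.4 FPKM in CMC livers. Both hold AGCTCAAAGGTCA, a match to AGNTCANAGNTCA, which 0.207% of 27025 promoters of this length hold, and it overlaps an ATATAA by 1 base. The promoters of Cyp3a11 and Cyp3a41a were 71.6% identical, and the mean CMC levels were 1495 FPKM and 0.334 FPKM. The Cyp3a11 promoter holds AGCTCAAAGTAGGTCA, a match to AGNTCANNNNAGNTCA with no other listed motif over it, at -172 to -157 relative to the start. That pattern is in 0.133% of promoters, and neither it nor the other paired patterns are in the windows of Cyp3a41a, Cyp3a44, Cyp3a13, Nr1i2 or Por. The patterns searched were AGNTCA pairs in the same direction with 1 to 5 bases between, and pairs facing away from each other as TGANCTNNNNNNAGNTCA and TGANCTNNNNNNNNAGNTCA. Of these, members matched those with 1 and with 4 bases between. ATATAA was in 10.2% of all promoters and in those of Cyp3a11, Cyp3a25, Cyp3a41a, Cyp3a44, Cyp3a59 and Nr1i2. The match nearest the start began at -42 in Cyp3a11, -27 in Cyp3a41a and Cyp3a44, -89 in Nr1i2, -188 in Cyp3a25 and -189 in Cyp3a59. GGGCGG was in 35.9% of all promoters and in those of Cyp3a11 and Por. The Por promoter, with a GC content of 67.3% against a median of 52.7%, holds 4 copies. A match is a run of letters and was not tested as a binding site.

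The receptor gene Nr1i2 was not past the threshold. It was at 28.6, 38.7, 25.3, 28.5 and 27.6 FPKM in CMC libraries 1 to 5 and at 29.7, 33.7, 30.6, 26.0 and 33.7 FPKM in the DEHP libraries. These ranges overlapped, and CMC library 2 was the highest of the 10. Its log2 fold change was 0.06 (SE 0.11, 95% interval -0.19 to 0.30, limma adjusted p = 0.821), and 0.15 without CMC library 2 (limma adjusted p = 0.342). The sign turned with median-of-ratios scaling and with quantile normalization. Nr1i2 and Cyp3a25 were the tested members whose 95% interval lay within 0.5 of 0 on the log2 scale, as did that of 52.2% of all tested genes.

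Of 17 tested partners and regulators of PXR, 1 was higher and 1 lower, with a median log2 fold change of -0.13 beside 0.06 for all tested genes. Those counts are near the 9.12% higher and 2.4% lower of all tested genes and are no result about the list, and without CMC library 2 they were 2 and 0. Rxrb, a retinoid X receptor, rose from 14.1 ± 1.92 to 18.1 ± 1.43 FPKM (limma adjusted p = 0.0416), and Foxo1, an insulin-regulated transcription factor that can act with PXR, fell from 9.25 ± 1.22 to 6.89 ± 1.12 FPKM (limma adjusted p = 0.0485). The call of Rxrb was lost in 14 of 22 alternatives and that of Foxo1 in 15, among them leaving out CMC library 2 for Foxo1 (limma adjusted p = 0.102). Rxra, the main retinoid X receptor of liver, was at 73.1 ± 4.55 and 77.0 ± 4.83 FPKM, with a log2 fold change of 0.08 (SE 0.07) that was not past the threshold and turned sign with median-of-ratios scaling and quantile normalization. Hnf4a, a hepatocyte factor needed for PXR activity on Cyp3a genes, was at 164 ± 14.5 and 139 ± 12.7 FPKM (limma adjusted p = 0.0923), and CAR itself, Nr1i3, at 50.1 ± 3.28 and 59.8 ± 7.94 FPKM (limma adjusted p = 0.127). Nr0b2, a repressor that bile acids induce, had a log2 fold change of 0.51 (limma adjusted p = 0.0768), and was past the threshold as higher with array weights, without CMC library 2 and without that library and DEHP library 5 (limma adjusted p = 0.0104 to 0.0386). Nr1i3 was so without DEHP library 4 (limma adjusted p = 0.0171). The corepressor gene Ncor1 had a log2 fold change of -0.28 (limma adjusted p = 0.127). Hnf4a and Ncor1 were past the threshold as lower with median-of-ratios scaling and with quantile normalization, at an adjusted p of 0.0234 to 0.0364.

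Por was higher after DEHP, with a wide spread. It was at 95.7, 177, 94.5, 121 and 122 FPKM in CMC libraries 1 to 5 and at 168, 173, 180, 185 and 295 FPKM in DEHP libraries 1 to 5. CMC library 2 lay inside the DEHP range, the other CMC libraries lay below all DEHP libraries, and DEHP library 5 was the highest by far. The mean went from 122 ± 33.7 to 200.2 ± 53.3 FPKM (SD, n = 5 each). The log2 fold change was 0.72 (SE 0.19, 95% interval 0.30 to 1.14, limma adjusted p = 0.0334). Without CMC library 2 the log2 fold change was 0.86 (limma adjusted p = 0.00449), and without that library and DEHP library 5 it was 0.71 (limma adjusted p = 0.000713). The call was lost when CMC library 1, 3, 4 or 5 or DEHP library 3 or 4 was left out (limma adjusted p = 0.0552 to 0.0777), with median-of-ratios scaling (0.061), with quantile normalization (0.0732) and with the leading component of the circadian clock genes as a covariate (0.174). Its two-sided exact permutation p was 0.0238, and 0.135 adjusted over all tested genes.

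Of the 8 genes that carry electrons to P450 or handle its haem, Por included, 4 were higher and 0 lower, with a median log2 fold change of 0.33, beside 9.12% higher and 2.4% lower over all tested genes. Without CMC library 2 the count was also 4 and 0. Cyb5a and Cyb5b, the cytochrome b5 genes of the endoplasmic reticulum and the mitochondrial outer membrane, rose from 1265 ± 98.8 to 1617 ± 206 FPKM (limma adjusted p = 0.0212) and from 94.1 ± 4.49 to 126 ± 15.99 FPKM (limma adjusted p = 0.00713). Pgrmc1, which binds haem and P450 enzymes, rose from 666 ± 31.4 to 825 ± 49.2 FPKM (limma adjusted p = 0.00849). Its relative Pgrmc2 had a log2 fold change of 0.34 (limma adjusted p = 0.0724) and the haem oxygenase gene Hmox2 of 0.16 (limma adjusted p = 0.258). The call of Cyb5a was lost in 5 of 22 alternatives. With median-of-ratios scaling 2 of the 8 were higher and with quantile normalization 1.

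Of 23 tested targets of PXR or CAR outside the Cyp3a family, 9 were higher, 1 was lower and 13 were not past the threshold. The median log2 fold change of the 23 was 0.36. Over all tested genes 9.12% were higher and 2.4% lower, with a median of 0.06, and without CMC library 2 the list had 12 higher and 1 lower. Cyp2b10 was at 0.37, 5.97, 2.74, 0.37 and 1.4 FPKM in CMC and at 12.7, 15.3, 18.9, 9.31 and 16.6 FPKM in DEHP libraries 1 to 5. Every DEHP library lay above every CMC library (log2 fold change 2.89, SE 0.55, limma adjusted p = 0.00987). Within each library the log2 level of Cyp2b10 minus that of Cyp3a11 was -9.52 ± 0.96 in CMC and -6.40 ± 0.41 in DEHP livers (SD, n = 5 each). The groups differed in it by 3.12 on the log2 scale. That pair was chosen with earlier results of these data known, so this value is a description.

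The export pumps Abcc3 and Abcc4 were also higher, Abcc3 at 30.4 ± 4.06 and 67.3 ± 3.59 FPKM (limma adjusted p = 3.98e-06) and Abcc4 at 0.266 ± 0.195 and 1.35 ± 0.509 FPKM (limma adjusted p = 0.00262). Abcc4 reached the filter in 6 libraries, the 5 DEHP libraries and CMC library 2 at 0.53 FPKM. Its call thus gives no support, though it is among the 9 higher targets and the 12 without CMC library 2. Ugt1a1, which conjugates bilirubin, rose from 120.3 ± 13.8 to 200.9 ± 19.9 FPKM (limma adjusted p = 0.000197). The aldehyde dehydrogenase genes Aldh1a1 and Aldh1a7, closely related copies, rose from 552 ± 149 to 1105 ± 65.0 FPKM and from 108 ± 17.2 to 175 ± 20.4 FPKM (limma adjusted p = 0.00244 and 0.000987). Gstt1, a glutathione transferase, rose from 251.8 ± 22.7 to 362 ± 49.7 FPKM (limma adjusted p = 0.00326). The lower target was Slco1a4, an uptake transporter named here after its values were seen, which fell from 14.7 ± 7.11 to 6.63 ± 1.55 FPKM (limma adjusted p = 0.0487), a call lost in 13 of 22 alternatives.

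**Figure D3:**
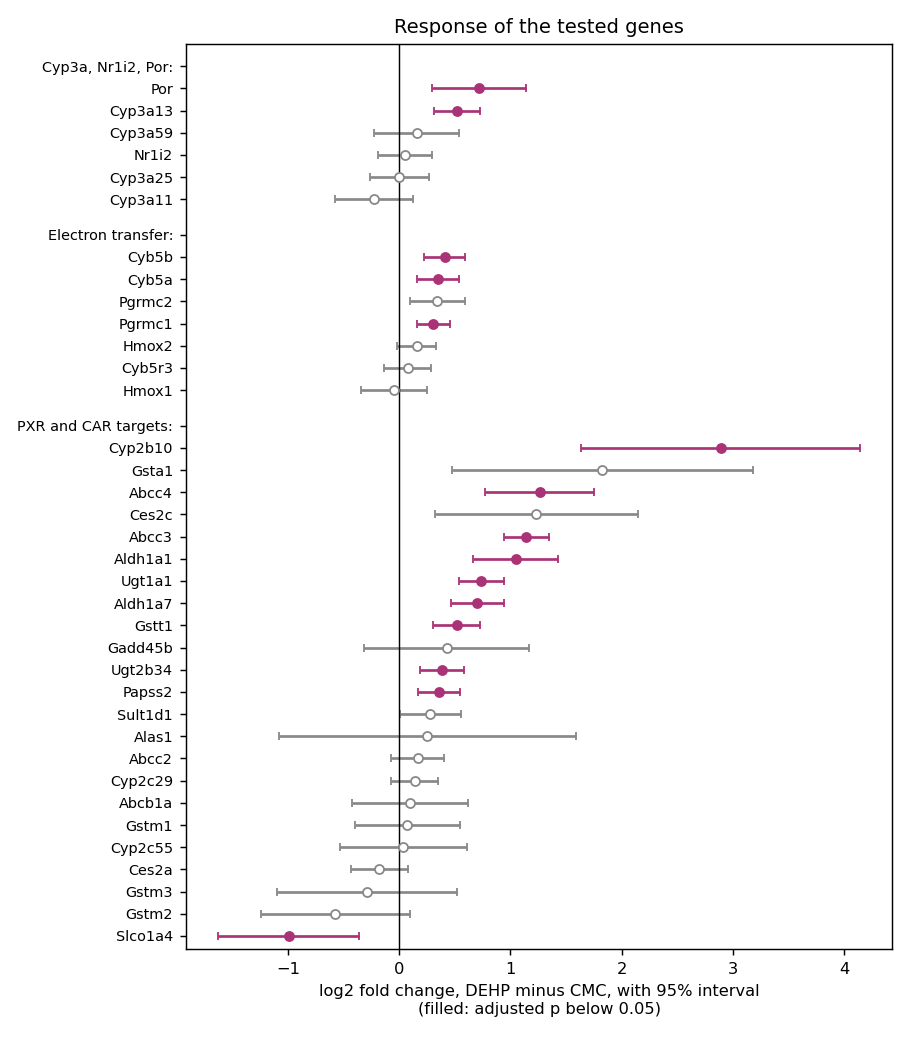
Log2 fold change, DEHP minus CMC, on the log2(FPKM + 0.5) scale (horizontal axis) with its 95% interval from limma, for the tested members, electron transfer genes and PXR and CAR targets; filled points have an adjusted p below 0.05. Cyp3a11 sits at -0.22 with its interval across 0, while Cyp2b10 sits at 2.89.

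CMC library 2 had the highest value of all 10 libraries for Cyp3a11, Cyp3a25, Cyp3a59, Cyp3a41a and Nr1i2. In that library Cyp3a11 stood 0.67 and Nr1i2 0.44 above the CMC median on the log2 scale, and Cyp3a13 0.04. Of the 14 listed male-type genes, this library was below all other CMC libraries for 10 and above them for 2. Slco1a1, an organic anion uptake carrier, was at 56.9 FPKM against 85.8 to 96.6 FPKM in the other CMC libraries. Of the 13 listed female-type genes with a row, CMC library 2 was above all other CMC libraries for 3 and below them for 0. The 3 were Cyp3a41a, itself a member of the set, Cyp2b9 (0.31 against 0 to 0.3 FPKM) and Cyp2a4. Cyp2a4, a female-type P450 gene with close copies, was at 27.6 FPKM against 0 to 0.25 FPKM in the other CMC libraries. The part of these differences in the Cyp3a levels was not tested.

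**Figure D4:**
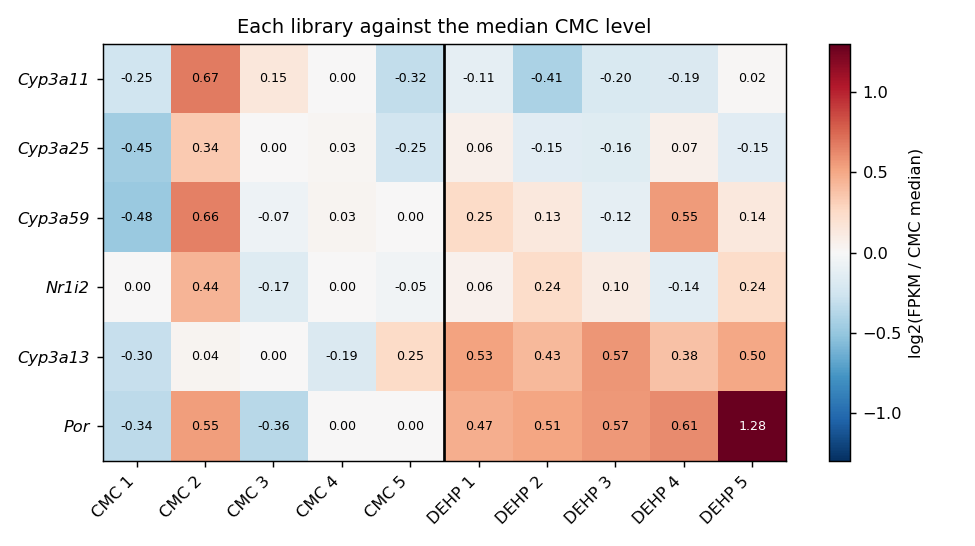
Log2 of each level over the median CMC level of the gene (colour and printed value) for the 6 tested members in the 10 libraries, CMC at the left of the line. CMC library 2 is raised for Cyp3a11, Cyp3a25, Cyp3a59, Nr1i2 and Por, and the DEHP libraries are raised for Cyp3a13 and Por.

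Because Cyp3a41a, Cyp3a44 and Cyp3a16 are female-type genes, they were listed together with other genes that differ by sex in mouse liver. Of 15 listed female-type genes, those Cyp3a genes included, 13 had a row and 4 were tested. Of these 4, 1 (Cyp2b9) was called higher and 0 lower, beside 9.12% and 2.4% of all tested genes, a count resting on very few genes. Without CMC library 2 the number called higher was 2, Cyp2b9 and Cyp2a4. Cyp2b9, a P450 gene, was at 0 to 0.31 FPKM in CMC and at 11.8 to 63.5 FPKM in DEHP libraries. Cyp2b9 passed the filter through the 5 DEHP libraries alone, so its call gives no support. Cyp2a4 had a log2 fold change of 2.14 (limma adjusted p = 0.302). Without CMC library 2 it was at 0 to 0.25 FPKM in CMC and 2.17 to 14.5 FPKM in DEHP libraries. It then passed the filter through the DEHP libraries alone, so its call in that run gives no support either. Acot3, a peroxisomal thioesterase gene, had a log2 fold change of 1.49 (limma adjusted p = 0.0890), while Fmo2 was at -0.13 (limma adjusted p = 0.763). Of 13 tested male-type genes 2 were higher and 3 lower, beside 9.12% and 2.4% of all tested genes, and 2 and 2 without CMC library 2. Cyp4a12a and Cyp4a12b, fatty acid hydroxylase genes that are close copies and may share reads, rose from 141 ± 55.7 to 369 ± 14.4 FPKM and from 46.5 ± 15.4 to 187 ± 12.5 FPKM (limma adjusted p = 0.00327 and 2.8e-05). Mup20, a urinary pheromone protein gene, fell from 9347 ± 2644 to 3961 ± 1479 FPKM, Slco1a1 from 85.8 ± 16.7 to 32.1 ± 15.7 FPKM and Nox4, an oxidase gene, from 8.59 ± 1.14 to 5.82 ± 1.27 FPKM (limma adjusted p = 0.0168, 0.0461 and 0.0295). Ugt2b38, a glucuronosyltransferase gene, had a log2 fold change of -1.54 (limma adjusted p = 0.2). The call of Mup20 was lost in 2 of 22 alternatives. The calls of Slco1a1 and Nox4 were lost in 10 and 6 of 22 alternatives, and without CMC library 2 Slco1a1 had an adjusted p of 0.0514 by limma.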

How the data were processed

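The deposited values are FPKM, per the file headers, with 1 row a gene. The submitters' processing notes name Cuffdiff, mm10 and GRCm38, with neither version nor role. Which aligner was used is not given in these sources. The RNA was total RNA and the kit TruSeq, per the labels. FPKM is relative to the library total, so a fall of abundant transcripts raises other values, and alike copies can trade reads.

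Of 16874 rows, 16833 matched the GRCm38.p6 gene table, and the gene ID was used to restore 22 symbols that had turned into dates. Genes reaching 0.5 FPKM in 5 or more libraries were tested as log2(FPKM + 0.5), which understates changes of low genes, with limma 3.58.1 in R 4.3.3 (intensity trend, robust variance), DEHP minus CMC, Benjamini-Hochberg adjustment over 11242 genes and a threshold of 0.05. The test was checked on simulated data. Depth was estimated from single-transcript genes of 1500 to 4000 bases, where 77.5% to 81.9% of low values lay within 0.2 of a whole fragment. Counting error alone is covered by that estimate. Sequence comparisons used Biopython 1.88 and figures Matplotlib 3.10.9.

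Named are all members, up to 6 genes per list by smallest p, a few set genes, and the 3 genes most like Cyp3a11 and Nr1i2. The members and lists were chosen with earlier results of these data known, and the motifs with the promoters in view. Alternatives were other pseudocounts (0.1, 1), filters (none, 2 FPKM), scalings, variance models, array weights, a replicate block, a covariate from 19 circadian clock genes, an exact permutation test and leaving out libraries.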

Additional observations from a re-analysis of the deposited data

Results flagged for a closer look

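In 10 of 92 groups of 5 libraries, 1 library lay so far from the others that its gap passed the 95% limit of Dixon's test, which chance alone passes in about 1 of 20 groups. Of these, 5 were in CMC library 2. Nr1i2 was at 38.7 FPKM there against 25.3 to 28.6 FPKM in the other CMC libraries, Foxo1 at 11.4 FPKM against 8.3 to 9.15 FPKM, Cyp2a4 at 27.6 FPKM against 0 to 0.25 FPKM and Atp6v1e1, a proton pump subunit gene, at 99.0 FPKM against 76.0 to 80.4 FPKM. Slco1a1 was low in the same library, at 56.9 FPKM. Atp6v1e1 was named because its level followed that of Cyp3a11, which was also highest in CMC library 2. Other genes were named by smallest p in these data, so the tally cannot be weighed against the rate of 1 in 20.

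In DEHP library 5, Por was at 295 FPKM against 168 to 185 FPKM in the other DEHP libraries, and Cyp2b9 at 63.5 FPKM against 11.8 to 23.4 FPKM. In DEHP library 2, Rxra was at 85.5 FPKM against 73.7 to 76.5 FPKM, and Cyp3a44 at 0.14 FPKM, about 2 fragments, against 0 in the others. In CMC library 5, Gstt1 was at 291 FPKM against 233 to 247 FPKM.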

How the results depend on the processing

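Cyp3a11, Cyp3a13 and Cyp3a59 kept their direction and their side of the threshold in all 22 alternatives by limma (but Cyp3a13 also missed the adjusted threshold in the exact permutation test). The difference between Cyp2b10 and Cyp3a11 ranged from 2.77 to 3.56. Except where a reason is given, the cause of the following changes was not tested. The count of higher members was 1 with median-of-ratios scaling, quantile normalization or the circadian covariate, where Por lost its call (log2 fold change 0.64, 0.58 and 0.59), and 0 by the exact permutation test, whose smallest adjusted p was 0.0742 and which passed 2681 genes unadjusted. Without 1 library it was 1 to 2, with Por at 0.57 to 0.86. Cyp3a25 reversed to -0.077, -0.14 and -0.020 with median-of-ratios scaling, quantile normalization and removal of the 10 most abundant genes, and ranged from -0.095 to 0.10 without 1 library. Nr1i2 reversed to -0.022 and -0.068, and Rxra to -0.0025 and -0.069, with the first 2 of these scalings, which moved the median of all genes from 0.06 to -0.01 and -0.02. Genes higher and lower in all were 1025 and 270, then 634 and 449 with median-of-ratios scaling, 611 and 546 with quantile normalization and 637 and 167 with the covariate; without 1 library 735 to 1015 were higher and 200 to 260 lower.

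Of the PXR partners, the number higher was 0 with no filter, the 3 other scalings, a plain variance or the replicate block, 2 with array weights or without CMC 2 and DEHP 5, and 0 to 2 without 1 library. The number lower was 3 with median-of-ratios scaling or quantile normalization, 0 with no filter, the abundant genes removed, a plain variance, array weights, the covariate or without both libraries, and 0 to 1 without 1 library. The 1 lower target was lost (0) with a pseudocount of 1, no filter, a plain variance, the replicate block or the covariate, with 0 to 1 without 1 library. Higher electron transfer genes numbered 2 with median-of-ratios scaling, 1 with quantile normalization, 2 with the covariate and 2 to 5 without 1 library. Higher female-type genes numbered 0 without both libraries and 0 to 2 without 1 library, and lower male-type genes 1 with the replicate block and 1 to 3 without 1 library. Cyp2b9 reaches the filter in the 5 DEHP libraries alone, so leaving out any DEHP library took it out of the test. The 5 runs without 1 CMC library did test it, but it passed the filter there by the same route, so its call in them gives no support.

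Same-numbered libraries did not deviate together (correlations of deviations -0.07 to 0.05), so the numbers were not used as pairs. With the replicate block 2 members were higher (Cyp3a13 adjusted p = 0.00807, Por 0.0281 by limma) and 816 genes were higher and 229 lower in all. Depth limits what can be said of Cyp3a41a and Cyp3a44.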

Other observations

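Across all tested genes outside the set, those whose log2 level followed Cyp3a11 most closely over the 10 libraries were Actr3, an actin nucleation gene, Renbp, a sugar epimerase gene, and Atp6v1e1. Their Pearson correlations of 0.92, 0.91 and 0.91 went with rank correlations of 0.81, 0.72 and 0.65, and all of these genes had their highest value in CMC library 2. Those nearest to Nr1i2 were Fibp, Riox1 and Sds, the serine dehydratase of liver, with Pearson correlations of 0.92, 0.90 and 0.89 and rank correlations of 0.96, 0.93 and 0.89. Fibp, Riox1, Sds and Nr1i2 also had their highest value in CMC library 2. The neighbours of Cyp3a11 and of Nr1i2 are the closest of 11242 genes and describe these libraries only.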
